A study of Homo sapiens with 240 samples.

Results

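The 59 genes described here encode the nuclear-coded subunits of respiratory complexes II, III and IV, ATP synthase (complex V), cytochrome c, and the factors and copies that share their symbol roots. Members were taken by symbol from the deposited tables: symbols that start with SDH and A, B, C or D, with UQCR, with COX and a digit, or with ATP5, together with CYC1 and CYCS. Of 70 matching symbols, 5 pseudogenes were dropped. Of the 65 left, 59 reached 1 TPM (a transcript abundance scaled to gene length and library depth) in at least 3 libraries of a table, and 58 of these did so in all 5 tables (ATP5L2 passed in the AMPK table alone). The tables list 27234 genes. The members were 40 subunits (4 of complex II, 9 of complex III, cytochrome c itself, 11 of complex IV and 15 of complex V), 13 assembly factors (4 of complex II and 9 of complex IV) and 6 copies or other genes. The 6 symbols that stayed below the filter are tissue or testis isoforms of complex IV: COX4I2, COX6A2, COX6B2, COX7A1, COX7B2 and COX8C, none above 0.746 TPM in any library.

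Complex II passes electrons from succinate to coenzyme Q, complex III passes them on to cytochrome c, and complex IV passes them to oxygen. Complexes III and IV pump protons, and ATP synthase uses the proton gradient to make ATP. Complexes III to V also hold subunits coded by mitochondrial DNA, which are not among the members, and assembly factors insert haem, copper, flavin and iron-sulfur groups. In the cytosol, cytochrome c is a trigger of apoptosis.

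Polyadenylated RNA of HEK 293T cells, a human embryonic kidney line, was measured in 240 libraries, 3 in each of 80 groups. AMPK knock out (KO) and AMPK WT cells were given 991 (a synthetic activator of AMPK), CCCP (an uncoupler), phenformin or rotenone (both inhibitors of complex I) for 2, 4, 8 and 16 h, with DMSO at 0 h (51 libraries in each arm). FNIP1 knock out cells were rebuilt with FNIP1 SA5, whose AMPK phosphosites are alanine, or with WT FNIP1, and given 991 for 2 to 16 h (30 libraries). TFEB+TFE3 knock out and WT cells, ESRRA knock out and WT cells, and siPGC1A and siControl cells were given 991 for 2 to 24 h (36 libraries for each pair). In every arm DMSO was sampled at 0 h only, so each change against DMSO also carries the time in culture. Doses, the number of knock out clones and whether the 3 libraries of a group were separate cultures are not given in the labels, so p-values measure the spread between these libraries. For 6 AMPK WT libraries the titles or descriptions disagree with the library names and tags; 3 were placed as phenformin at 2 h and 3 as CCCP at 4 h by library name and tags.

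PRKAA1, an AMPK catalytic subunit gene, was at 2.15 to 3.73 TPM in AMPK KO libraries, against 6.03 to 10.6 TPM in AMPK WT libraries, with no overlap. PRKAA2, the other catalytic subunit gene, overlapped at 2.55 to 4.87 TPM in AMPK KO libraries and 3.77 to 7.40 TPM in AMPK WT libraries. ESRRA overlapped at 4.44 to 8.46 TPM in ESRRA KO libraries and 8.01 to 12.7 TPM in ESRRA WT libraries, and TFEB overlapped at 1.32 to 2.72 TPM in TFEB+TFE3 KO libraries and 1.24 to 3.56 TPM in WT libraries. TFE3 did too, at 7.18 to 10.2 TPM in TFEB+TFE3 KO libraries and 8.81 to 14.01 TPM in WT libraries, and transcript levels do not check a mutation that leaves the RNA. PPARGC1A was at 0.015 to 0.107 TPM with siPGC1A and 0.254 to 0.484 TPM with siControl. FNIP1 was at 223 to 289.5 TPM with siPGC1A, against 129 to 179 TPM with siControl, so these arms also differ in a gene that the siRNA does not name. It was above 100 TPM in the ESRRA table too, against at most 7.17 TPM in the AMPK table, and the labels do not say why. Between the FNIP1 arms FNIP1 levels did not overlap, at 5.47 to 195 TPM (median 174) with FNIP1 SA5 and 221 to 271 TPM with WT FNIP1. Those arms thus differ in FNIP1 transcript as well as in the phosphosites. All 7 HEK 293 markers reached 1 TPM in some library, though not in every experiment. NEFM was at most 0.09 TPM in the ESRRA arms and 0.124 TPM in the siRNA arms, against 8.92 to 21.2 TPM in the TFEB+TFE3 arms. PAX2 spanned 0.134 to 1.76 TPM, and VIM was the highest of the 7, at 174 to 745 TPM. Of 12 markers of other cells, 2 reached 1 TPM (COL1A1 up to 5.64 TPM and COL3A1 up to 2.74 TPM). The library labelled FNIP1 SA5 DMSO replicate 1 stood apart: its FNIP1 was 5.47 TPM, against 179 and 172 TPM in the other 2 libraries of that group. Replicate 1 of FNIP1 SA5 at 8 h of 991 stood apart to a lesser degree, and results of that table are given with and without both.

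Under DMSO the subunits were among the well expressed genes. TPM is per length, so genes can be compared, but the read depth behind it is unknown, and in bulk RNA fewer cells of a type and less RNA per cell cannot be told apart. In AMPK WT cells ATP5B, the catalytic beta subunit of ATP synthase, was the highest at 656 ± 7.05 TPM (SD, n = 3), and COX4I1, a regulatory subunit, led complex IV at 552 ± 8.13 TPM. The hinge protein UQCRH led complex III at 238 ± 8.97 TPM, though its reads may not be separable from those of the near copy UQCRHL, listed at 211 ± 8.90 TPM. The iron-sulfur subunit SDHB led complex II at 104.5 ± 4.44 TPM; the flavoprotein SDHA (70.98 ± 0.58) and the membrane anchors SDHD (55.8 ± 2.27) and SDHC (25.1 ± 0.43) followed, each apart from the next by more than its spread. By complex the median level of the subunits was 63.4 TPM for complex II, 104 for complex III, 285 for complex IV and 245 for complex V, and CYCS stood at 54.3 ± 1.42 TPM. The 13 assembly factors were lower, with a median of 14.3 TPM, and ranged from COX19 at 2.61 ± 0.18 TPM to COX17, a copper carrier, at 79.96 ± 4.61 TPM. SDHA shares sequence with the SDHA pseudogenes, ATP5E with ATP5EP2, and ATP5J2 and COX10 overlap ATP5J2-PTCD1 and COX10-AS1, so these levels are uncertain.

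After 16 h in AMPK WT cells the 4 compounds lowered different numbers of members (limma on log2(TPM + 1), Benjamini-Hochberg adjusted over 13617 genes, threshold 0.05). With phenformin 44 of 59 members fell and 4 rose, while 34.9% of all genes fell and 45.3% rose. CCCP gave 30 falls and 10 rises (all genes 26.6% fell and 44.1% rose). For 991 there were 28 falls and 9 rises (all genes 26.9% and 41.9%), and for rotenone 22 falls and 12 rises (all genes 29.2% and 36.2%). As a group the members had a median log2 change of -0.36 with phenformin (all genes 0.073), -0.11 with CCCP (all genes 0.091), -0.084 with 991 (all genes 0.071) and -0.037 with rotenone (all genes 0.025). All 3 phenformin libraries lay below all 3 DMSO libraries for 46 members and above for 5, a count that was not made for all genes. The 4 comparisons share the same 3 DMSO libraries. The split between falls and rises moved with the scaling: quantile normalization gave 40 falls and 13 rises for phenformin, 26 and 15 for CCCP, 17 and 15 for 991, and 17 and 15 for rotenone. Median-ratio scaling gave 51 falls and 3 rises for phenformin, 42 and 4 for CCCP, 38 and 5 for 991, and 27 and 6 for rotenone. The median of the members stayed below 0 for every compound under both. Leaving out 1 replicate number from every group changed the phenformin falls to 43 or 44, but gave 18 falls for 991 and 13 for rotenone without replicate 3, and 6 rises for 991, 5 for CCCP and 8 for rotenone without replicate 2. Marker genes moved with these results. The summed level of 7 HEK 293 markers was 439 to 451 TPM with phenformin, 441 to 457 with CCCP, 418 to 419.7 with 991 and 377 to 395 with rotenone, against 305 to 334 TPM under DMSO. The summed level of 12 markers of other cells was 6.54 to 7.17 TPM with phenformin, 4.50 to 5.03 with CCCP, 5.999 to 6.17 with 991 and 3.94 to 4.20 with rotenone, against 7.80 to 8.33 TPM under DMSO; COL1A1 and COL3A1 make up most of it and HBB was at 0 throughout. Their part in the results was not tested.

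**Figure D1:**
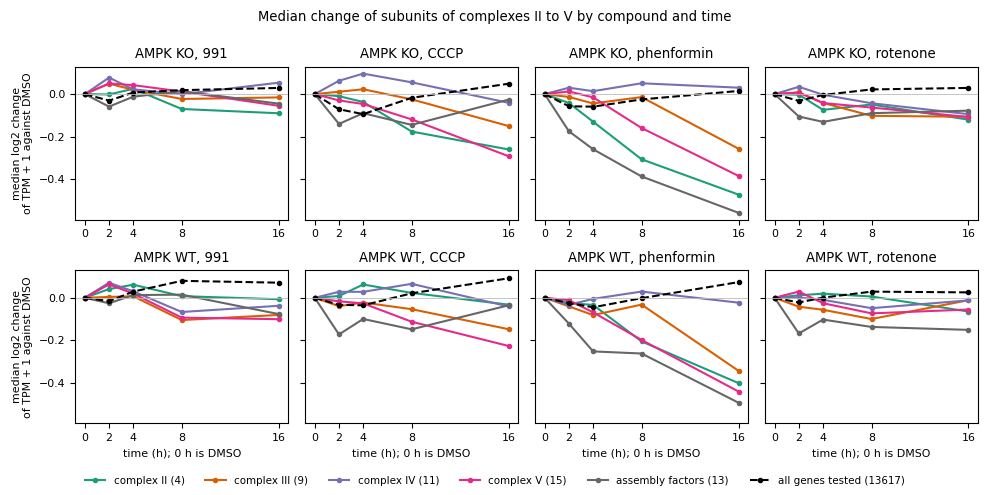
Median log2 change of TPM + 1 (vertical axis) of the subunits of each complex, the 13 assembly factors and all 13617 genes tested, against DMSO, by time in h (horizontal axis), for each compound in AMPK KO (upper row) and AMPK WT cells (lower row). Complex II, complex V and the assembly factors moved down over time with phenformin in both arms, and the complex IV subunits stayed near 0.

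Phenformin touched the complexes unevenly. At 16 h in AMPK WT cells 4 of 4 subunits of complex II fell (median -0.40), 7 of 9 of complex III (-0.34), 14 of 15 of complex V (-0.44), and 4 of 11 of complex IV, whose median stayed at -0.023. The 37 subunits of complex I, the enzyme that phenformin inhibits, had a median of -0.30, with 32 that fell and 2 that rose. The order over time was gradual for complex V, with medians of -0.011 at 2 h, -0.068 at 4 h, -0.20 at 8 h and -0.44 at 16 h. At 4 h, 8 of 13 assembly factors had fallen (median -0.25), and 15 of 40 subunits had (median -0.050; all genes -0.045, of which 37.5% fell); the difference between the 2 groups was not tested.

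In AMPK WT cells phenformin lowered 17 members and raised 5 at 2 h (all genes 31% and 23.7%), lowered 26 and raised 8 at 4 h (all genes 37.5% and 28.3%), and lowered 34 and raised 7 at 8 h (all genes 36% and 36.8%).

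In complex II, SDHAF3, which helps to mature the iron-sulfur subunit, changed most of all members. SDHAF3 was at 4.23, 3.97 and 3.81 TPM with phenformin at 16 h, against 12.6, 14.2 and 15.2 TPM under DMSO, and the groups did not overlap (log2 change -1.58, SE 0.075, adjusted p = 5.2e-31). With the other 3 compounds its log2 change at 16 h did not pass the test (-0.022 with 991, -0.026 with CCCP and -0.033 with rotenone). SDHAF1, a partner in the same step, fell with phenformin (log2 change -0.78, SE 0.065, adjusted p = 3.9e-18). SDHA, the flavoprotein that oxidises succinate, was at 44.6, 44.9 and 44.3 TPM, against 71.03, 71.5 and 70.4 TPM under DMSO (log2 change -0.66, SE 0.029, adjusted p = 2e-33). The anchors SDHC (-0.45) and SDHD (-0.35) and the iron-sulfur subunit SDHB (-0.16) fell by less on the log2 scale. SDHAF2, needed to attach flavin to SDHA, did not pass the test (log2 change -0.078, SE 0.054, adjusted p = 0.18).

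In complex III the Rieske iron-sulfur subunit UQCRFS1, which hands electrons towards cytochrome c1, was at 32.8, 30.3 and 31.3 TPM with phenformin, against 87.4, 85.9 and 85.9 TPM under DMSO (log2 change -1.43, SE 0.034, adjusted p = 5.5e-50). Its levels under phenformin passed through 68.4, 67.02 and 69.9 TPM at 4 h and 50.5, 48.02 and 48.5 TPM at 8 h, each set of libraries below the one before. The small subunit UQCR10 was at 90.7, 88.8 and 89.2 TPM, against 205, 204 and 203 TPM under DMSO (log2 change -1.18, SE 0.038, adjusted p = 2.5e-41). The core protein UQCRC1 (-0.59) and cytochrome c1, CYC1 (-0.47), fell too, and the core protein UQCRC2 fell by less (-0.16). UQCRB stayed within its spread (0.034), and UQCRH rose slightly (log2 change 0.078, SE 0.037, adjusted p = 0.05), at the edge of the threshold.

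Cytochrome c itself followed UQCRFS1 closely in size. CYCS was at 19.2, 18.6 and 19.5 TPM with phenformin at 16 h, against 55.9, 53.3 and 53.6 TPM under DMSO (log2 change -1.46, SE 0.071, adjusted p = 1.3e-30). The other compounds lowered it by less at 16 h: CYCS was at 37.2, 38.1 and 41.1 TPM with CCCP (log2 change -0.48, SE 0.071, adjusted p = 1.3e-08) and at 38.8, 38.1 and 36.7 TPM with 991 (log2 change -0.51, SE 0.071, adjusted p = 2.7e-09). Rotenone gave 45.6, 43.5 and 44.8 TPM of CYCS (log2 change -0.28, SE 0.071, adjusted p = 0.0005). No library of any compound at 16 h reached the lowest DMSO library. CYC1, which receives the electrons that CYCS carries on, fell by less than CYCS with phenformin, as given above. Its log2 change was -0.15 with CCCP, -0.14 with 991 and -0.13 with rotenone.

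Complex IV split in 2 directions with phenformin. COX8A (-0.66), COX7B (-0.49), COX6B1 (-0.32) and COX7C (-0.16) fell, and COX6C was at 129, 129.6 and 135 TPM, against 114, 100.2 and 108.9 TPM under DMSO (log2 change 0.29, SE 0.050, adjusted p = 4.5e-07). COX4I1, COX5A, COX5B, COX6A1, COX7A2 and COX7A2L did not pass the test, with log2 changes of -0.057 (COX5A) to 0.044 (COX6A1). Its assembly factors ranged more widely. COX19, which takes part in copper delivery, was at 6.47, 6.22 and 6.37 TPM, against 2.40, 2.72 and 2.71 TPM under DMSO (log2 change 1.03, SE 0.082, adjusted p = 3.9e-19), the largest rise among the members. COX10, which makes haem O on the way to haem A, rose (log2 change 0.62, SE 0.051, adjusted p = 3.2e-18), whereas COX15, which makes haem A from haem O, fell (log2 change -0.35, SE 0.047, adjusted p = 3.5e-10). COX14 (-1.08), COX18 (-0.75) and COX16 (-0.65), which act on the mitochondrially coded subunits, fell. The row named COX20 is a non-coding transcript of that locus; it was at 5.42, 5.63 and 5.70 TPM, against 18.4, 15 and 15.8 TPM under DMSO (log2 change -1.40, SE 0.14, adjusted p = 2e-14).

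In complex V the 3 genes for subunit c of the rotor ring parted ways. ATP5G1 was at 116, 115 and 114 TPM with phenformin at 16 h, against 234, 255 and 247 TPM under DMSO (log2 change -1.09, SE 0.046, adjusted p = 4.7e-34). ATP5G3 was at 76.5, 75.98 and 77.8 TPM, against 138, 142 and 141 TPM (log2 change -0.86, SE 0.029, adjusted p = 7e-40). ATP5G2 stayed at 248, 266 and 258 TPM, against 248, 263 and 257 TPM, with overlapping groups (log2 change 0.0059, SE 0.040, adjusted p = 0.9). With CCCP and 991 the same genes moved in opposite directions: ATP5G2 rose (0.32 with CCCP, 0.24 with 991), while ATP5G1 (-0.47 and -0.22) and ATP5G3 (-0.52 and -0.22) fell. In the catalytic head, ATP5A1 (-0.60), ATP5B (-0.49), ATP5C1 (-0.33), ATP5D (-0.75) and ATP5E (-0.30) all fell with phenformin. Among the other genes of the membrane part and the stalk, ATP5I (-0.83) and ATP5J2 (-0.79) fell most and ATP5O least (-0.19). ATP5S, grouped here with the copies and other genes, was at 2.91, 2.36 and 2.77 TPM, against 8.34, 8.15 and 8.65 TPM (log2 change -1.35, SE 0.079, adjusted p = 5.3e-26). Log2 changes are of TPM + 1, which understates the change of low genes such as ATP5S, COX19 and SDHAF4.

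**Figure D2:**
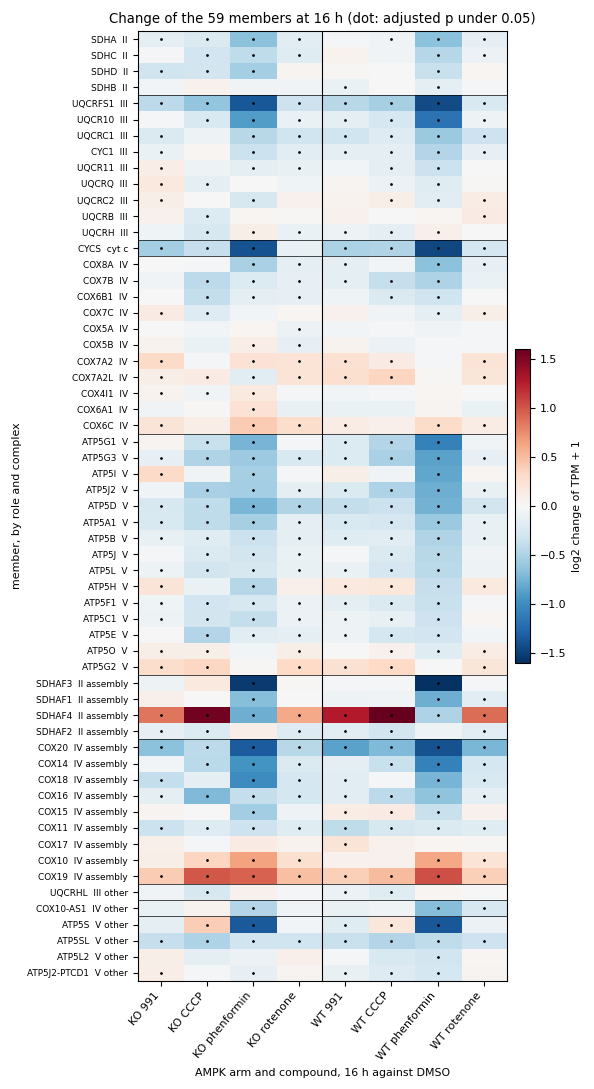
Log2 change of TPM + 1 of the 59 members (rows, by role and complex) at 16 h against DMSO, for 4 compounds in AMPK KO (left) and AMPK WT cells (right); a dot marks an adjusted p under 0.05. The phenformin columns are blue for most rows, SDHAF4 is red for 991, CCCP and rotenone and blue for phenformin, and COX19 is red throughout.

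CCCP, 991 and rotenone shared some of their leading members in AMPK WT cells at 16 h, though against the same DMSO libraries. With CCCP, UQCRFS1 was at 59.1, 59.2 and 59.7 TPM (log2 change -0.53, SE 0.034, adjusted p = 2.3e-23) and ATP5J2, the f subunit, at 303, 328 and 322 TPM, against 447, 423 and 478 TPM under DMSO (log2 change -0.50, SE 0.041, adjusted p = 8.3e-18). With 991, UQCRFS1 was at 61.9, 63.5 and 64.1 TPM (log2 change -0.45, SE 0.034, adjusted p = 4.3e-19), and the copper carrier COX11 at 31.7, 31.1 and 32.5 TPM, against 44.7, 42.2 and 40.9 TPM (log2 change -0.41, SE 0.053, adjusted p = 3.5e-10). With rotenone the core protein UQCRC1 was at 144, 144 and 143 TPM, against 187, 180.0 and 178 TPM (log2 change -0.34, SE 0.043, adjusted p = 3.4e-10), and ATP5SL, known for complex I assembly despite its symbol, fell as well (log2 change -0.33, SE 0.043, adjusted p = 3.4e-10). COX20 fell with CCCP (-0.70), 991 (-0.85) and rotenone (-0.73). Among the rises, COX7A2L, which tethers complexes III and IV in supercomplexes, was at 107.0, 108.8 and 110.1 TPM with CCCP, against 88.7, 84.01 and 83.5 TPM (log2 change 0.34, SE 0.036, adjusted p = 1.5e-13). COX7A2L rose with 991 (0.26) and rotenone (0.20) as well, and its paralogue COX7A2 rose with CCCP (0.14), 991 (0.24) and rotenone (0.22). COX19 rose with CCCP (0.50), 991 (0.39) and rotenone (0.38), and COX10 with rotenone (0.22).

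Some of the leading members have promoters that match a known site and others do not. The promoters of SDHAF3, UQCRFS1, SDHAF4 and SDHA hold the letters of a site for nuclear respiratory factor 1 (NRF1), a factor long known for respiratory genes; those of CYCS, UQCR10, ATP5G1, COX14 and COX20, which also fell with phenformin, do not. The letters searched were GCGCA, any base and GCGC, which read GCGC, any base and TGCGC on the other strand. Matches to different letters may overlap and were counted apart. The window was the 250 bases before each RefSeq gene start (GRCh38.p14). RefSeq promoters were matched for 46 of the 59 members. The windows below are printed 5′ to 3′ on the strand of the gene, with the match in capitals.
SDHAF3, chr7:97117465-97117524, plus strand: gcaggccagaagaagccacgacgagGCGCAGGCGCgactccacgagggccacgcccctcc
UQCRFS1, chr19:29213153-29213202, minus strand: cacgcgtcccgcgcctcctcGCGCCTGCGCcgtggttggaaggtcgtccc
SDHAF4, chr6:70566889-70566929, plus strand: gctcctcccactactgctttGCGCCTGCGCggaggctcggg
SDHA, chr5:218151-218313, plus strand, with 4 matches: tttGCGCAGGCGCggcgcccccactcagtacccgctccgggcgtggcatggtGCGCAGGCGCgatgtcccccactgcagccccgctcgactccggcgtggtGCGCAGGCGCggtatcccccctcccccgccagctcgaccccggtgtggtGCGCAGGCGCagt
The match starts 208 bases before the RefSeq gene start in SDHAF3, 31 in UQCRFS1, 21 in SDHAF4 and, for the nearest of SDHA, 19. The gene models behind the TPM values start elsewhere, at 97116593 for SDHAF3, 29213229 for UQCRFS1 and 218223 for SDHA. By those starts the matches of SDHAF3 and UQCRFS1 lie inside the gene, and so do those of SDHA at 68 and 19 bases before its RefSeq start. The match of SDHAF4 lies before its start in that model (70566922). SDHAF3, UQCRFS1 and SDHA fell with phenformin in both arms, and SDHAF4 rose or fell by compound.

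Over the 46 matched promoters, 12 held the NRF1 letters (26.1%), against 5.07% of 35116 RefSeq promoters. With phenformin at 16 h in AMPK WT cells, 11 of these 12 members fell (median log2 change -0.54) and 23 of the 34 without the letters did (median -0.34). With the other compounds the members with the letters had the higher median: -0.045 with CCCP (-0.10 without the letters), -0.029 with 991 (-0.082 without) and 0.006 with rotenone (-0.039 without). These differences between members with and without the letters were not tested. The 12 windows were not chosen for their values, but the 4 printed were. The letters CCGGAAG of the ETS factor GABPA (either strand) stood in 16 of 46 member windows (34.8%) and in 8.52% of all, and the members with them had a median of -0.33 with phenformin, against -0.46 for the 30 without. An estrogen-related receptor site, TCAAGGTCA, stood in none of the 46 windows and in 0.319% of all. The E-box TCACGTGA, read by TFEB and TFE3, stood in 1 (ATP5I) and in 0.854% of all, and the YY1 letters AAGATGGCG in 2 (4.35%) and in 0.652% of all. A match of letters is a description of sequence and no measure of binding.

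Most members fell with phenformin in AMPK KO cells too. There, 40 of 59 members fell and 8 rose at 16 h (all genes 37.7% and 41.2%), with a median of -0.31 beside 0.015 over all genes. SDHAF3 was at 3.45, 3.46 and 3.73 TPM in AMPK KO cells, against 12.2, 11.5 and 12.7 TPM under DMSO (log2 change -1.53, SE 0.075, adjusted p = 4e-30). CYCS was at 15.2, 15.7 and 15.2 TPM, against 41.3, 40.97 and 43.5 TPM (log2 change -1.39, SE 0.071, adjusted p = 2.7e-29), and UQCRFS1 at 34.6, 33.4 and 35.4 TPM, against 87.7, 88.6 and 94.3 TPM (log2 change -1.36, SE 0.034, adjusted p = 2.2e-48). The difference of the response, AMPK KO minus AMPK WT, was 0.049 for SDHAF3 (95% confidence interval -0.16 to 0.26), 0.070 for CYCS (-0.13 to 0.27) and 0.067 for UQCRFS1 (-0.028 to 0.16), none past the threshold. The other compounds at 16 h in AMPK KO cells gave 31 falls and 7 rises for CCCP (all genes 29.3% and 39.6%), 19 and 15 for 991 (all genes 27.1% and 34.8%), and 30 and 8 for rotenone (all genes 27.9% and 35.3%). COX10 and COX19 rose with phenformin in AMPK KO cells as well (0.65 and 0.95).

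For 18 members the response to phenformin at 16 h did differ between the arms (all genes 13.9%), 16 with a positive and 2 with a negative difference, AMPK KO minus AMPK WT. The 3 largest positive differences were in members that fell less in AMPK KO cells. ATP5G1 was at 149, 167 and 158 TPM in AMPK KO cells with phenformin, against 253, 286 and 260.5 TPM with DMSO, and its AMPK WT values are given above (log2 difference 0.34, SE 0.065, adjusted p = 0.00013). ATP5I, the e subunit, was at 128, 125 and 130.0 TPM, against 191, 178 and 188 TPM, in AMPK KO cells and at 161, 168 and 167 TPM, against 286, 301 and 295 TPM, in AMPK WT cells (log2 difference 0.29, SE 0.068, adjusted p = 0.002). UQCR10 was at 77.7, 75.1 and 73.7 TPM, against 145, 135 and 142 TPM, in AMPK KO cells (log2 difference 0.29, SE 0.054, adjusted p = 8.1e-05); both ATP5I and UQCR10 began lower in AMPK KO cells. The negative differences were COX15 (log2 difference -0.21, SE 0.066, adjusted p = 0.027) and COX7A2L (log2 difference -0.19, SE 0.051, adjusted p = 0.0066). Median-ratio scaling gave 27 positive and 0 negative differences, and quantile normalization 10 and 2. The count was 26 without replicate 1, 6 without replicate 2 and 3 without replicate 3.

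Phenformin and rotenone both inhibit complex I, and they were set side by side at 8 and 16 h, with the contrast taken directly so that the shared DMSO libraries drop out; doses are not given in the labels, so equal inhibition cannot be assumed. In AMPK WT cells at 16 h, 46 of 59 members were lower with phenformin and 5 higher (all genes 29.3% lower and 40.1% higher), with a median log2 difference of -0.34. At 8 h it was 28 lower and 11 higher (all genes 30.5% and 25.3%; median -0.075). In AMPK KO cells at 16 h, 37 were lower and 10 higher (all genes 33.1% and 34.2%; median -0.18). SDHAF3 was at 4.23, 3.97 and 3.81 TPM with phenformin and 13.3, 14.1 and 13.3 TPM with rotenone in AMPK WT cells (log2 difference -1.55, SE 0.075, adjusted p = 4.1e-30). SDHAF4 was at 3.93, 3.59 and 3.55 TPM with phenformin and 10.5, 12.2 and 11.2 TPM with rotenone (log2 difference -1.39, SE 0.12, adjusted p = 2.2e-17), on either side of its DMSO level. ATP5S followed (log2 difference -1.26, SE 0.079, adjusted p = 4.9e-24), and COX19 was the largest difference the other way (log2 difference 0.65, SE 0.082, adjusted p = 7.5e-11). COL1A1 and COL3A1 were higher with phenformin as well (log2 differences of 0.54 and 0.53, both called).

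SDHAF4, which binds flavinated SDHA before it joins SDHB, was the member with the widest range of responses. In AMPK WT cells SDHAF4 was at 10.8, 11.4 and 9.61 TPM after 2 h of CCCP, 19.2, 18.2 and 17.998 TPM after 4 h, 23.9, 24.3 and 23.9 TPM after 8 h and 18.96, 19.1 and 18.6 TPM after 16 h, against 6.25, 5.19 and 5.40 TPM under DMSO. Every CCCP library lay above every DMSO library, and the log2 change at 8 h was 1.92 (adjusted p = 8.7e-24). In AMPK KO cells it was at 4.21, 4.09 and 3.63 TPM after 2 h, 4.30, 3.87 and 4.47 TPM after 4 h, 9.82, 11.1 and 10.1 TPM after 8 h and 14.2, 14.2 and 13.7 TPM after 16 h, against 3.75, 4.06 and 4.78 TPM under DMSO. Its groups at 2 and 4 h overlapped DMSO, and those at 8 and 16 h lay above it. The difference of the response, AMPK KO minus AMPK WT, was -0.87 at 2 h (adjusted p = 0.00025), -1.55 at 4 h (adjusted p = 1.6e-11), -0.80 at 8 h (adjusted p = 0.00022) and -0.052 at 16 h (adjusted p = 0.85). SDHAF4 was singled out after its values were seen, and the 3 libraries at 4 h of CCCP in AMPK WT cells are among those whose titles disagree with their names.

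SDHAF4 was also the member, alone at that time, whose response differed between the arms at 2 h of rotenone (log2 difference -0.76, SE 0.17, adjusted p = 0.0066; all genes 0.676%) and at 4 h of 991 (log2 difference -0.74, SE 0.17, adjusted p = 0.0015; all genes 12.1%). With 991 at 16 h SDHAF4 was at 8.93, 7.32 and 9.04 TPM in AMPK KO cells and 16.2, 13.7 and 14.99 TPM in AMPK WT cells, above DMSO in both. With rotenone at 16 h it was at 7.05, 6.78 and 6.91 TPM in AMPK KO cells and 10.5, 12.2 and 11.2 TPM in AMPK WT cells. Phenformin raised it at 2 h in AMPK WT cells to 5.67, 9.09 and 7.55 TPM (log2 change 0.33, SE 0.12, adjusted p = 0.013). The groups overlapped, as the library at 5.67 TPM lay within the DMSO range of 5.19 to 6.245 TPM. At 16 h of phenformin SDHAF4 fell below DMSO in AMPK KO cells (log2 change -0.78, SE 0.12, adjusted p = 1.2e-08) and AMPK WT cells (log2 change -0.49, SE 0.12, adjusted p = 0.00013). The 3 phenformin libraries at 2 h carry the other disagreement of titles.

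**Figure D3:**
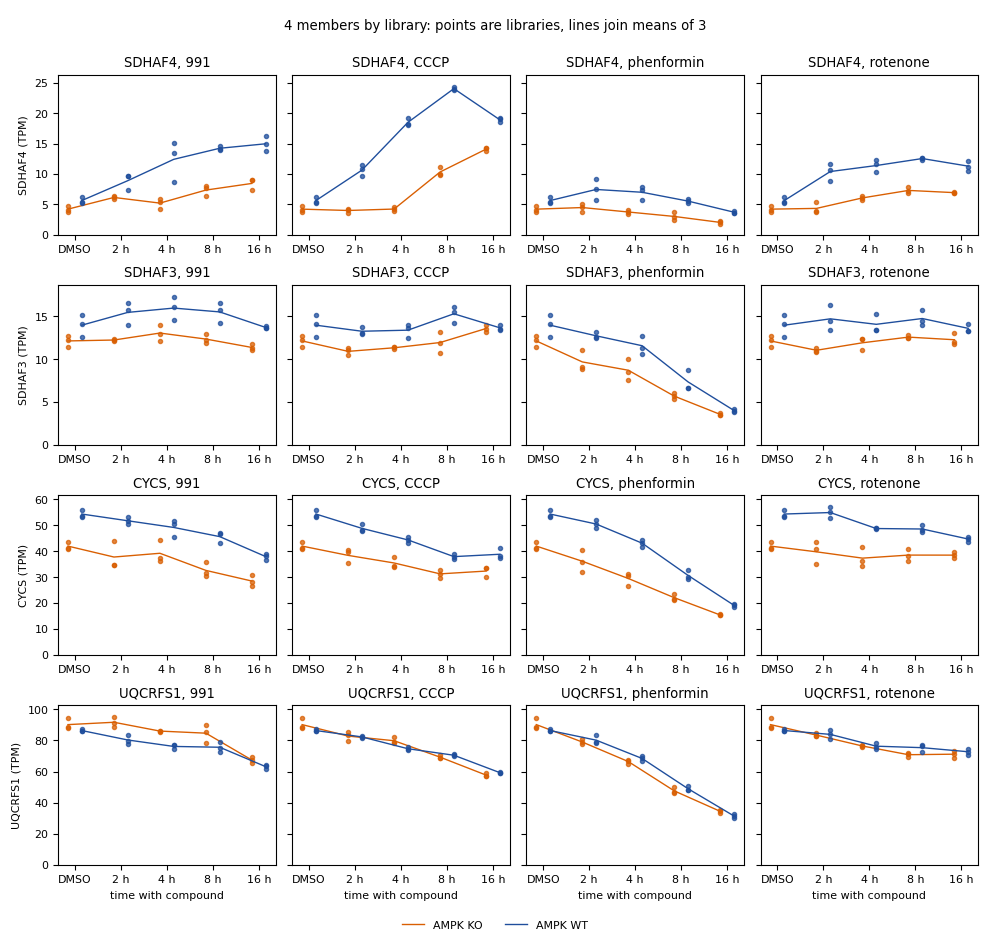
TPM (vertical axis) of SDHAF4, SDHAF3, CYCS and UQCRFS1 in each library (points) under DMSO and after 2, 4, 8 and 16 h of each compound (horizontal axis, not to scale in time), with lines through the means of 3, in AMPK KO (orange) and AMPK WT cells (blue). SDHAF4 climbs to a mean of 24.04 TPM after 8 h of CCCP in AMPK WT cells, while the AMPK KO libraries overlap DMSO until 4 h; the other 3 genes drop with phenformin in both arms.

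CCCP at 16 h gave differences of the response between the AMPK arms in 17 of 59 members, a share near that of all genes (28.2%). Of these differences 13 were negative and 4 positive, AMPK KO minus AMPK WT. SDHD, an anchor of complex II, was at 40.5, 45.6 and 43.1 TPM in AMPK KO cells, against 51.4, 52.9 and 54.4 TPM under DMSO, and at 54.5, 56.8 and 55.9 TPM in AMPK WT cells, against 53.6, 55.8 and 58.2 TPM (log2 difference -0.29, SE 0.11, adjusted p = 0.034). COX16 fell further in AMPK KO cells (log2 difference -0.28, SE 0.081, adjusted p = 0.0052). ATP5H, the d subunit of the stalk, was at 129, 127 and 129 TPM, against 136, 138 and 142 TPM, in AMPK KO cells and 148, 148 and 147 TPM, against 131, 131 and 134 TPM, in AMPK WT cells (log2 difference -0.27, SE 0.076, adjusted p = 0.0039). Positive differences were led by COX19, at 6.26, 6.29 and 6.44 TPM in AMPK KO cells and 4.02, 4.21 and 4.11 TPM in AMPK WT cells (log2 difference 0.49, SE 0.12, adjusted p = 0.00064), then COX10 (log2 difference 0.27, SE 0.073, adjusted p = 0.0031) and CYC1 (log2 difference 0.18, SE 0.058, adjusted p = 0.014). Median-ratio scaling gave 6 negative and 5 positive differences, and quantile normalization 16 and 5. The count was 6 without replicate 2 and 8 without replicate 3.

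With 991 at 16 h, 6 of 59 members differed in response between the AMPK arms, a share below that of all genes (15%). ATP5G1 was at 272, 276 and 278 TPM in AMPK KO cells, against 253, 286 and 260.5 TPM under DMSO, and at 214, 212 and 208 TPM in AMPK WT cells, against 234, 255 and 247 TPM (log2 difference 0.26, SE 0.065, adjusted p = 0.0027). ATP5J2-PTCD1 (log2 difference 0.22, SE 0.055, adjusted p = 0.0037) and ATP5I (log2 difference 0.21, SE 0.068, adjusted p = 0.024) were next, and the negative differences were SDHD (log2 difference -0.34, SE 0.11, adjusted p = 0.02) and COX7A2L (log2 difference -0.16, SE 0.051, adjusted p = 0.022). The fall of CYCS with 991 was present in both arms, at 30.7, 26.6 and 28.04 TPM in AMPK KO cells (log2 change -0.55, SE 0.071, adjusted p = 6.8e-10), with a difference of -0.038 (95% confidence interval -0.24 to 0.16). Median-ratio scaling gave 8 positive and 1 negative difference for 991, and quantile normalization 2 and 3, beside the 4 and 2 reported. The count was 11 without replicate 1, 2 without replicate 2 and 0 without replicate 3. With rotenone at 16 h the response differed between the arms past the threshold for 0 of 59 members in limma (all genes 1.97%), while 9 had an unadjusted p under 0.05.

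The response to 991 at 16 h was measured again in the control arms of the 4 other experiments, each with its own DMSO libraries. These were at 0 h as well, so agreement between the arms also carries the time in culture. In siControl cells 33 of 58 members fell and 8 rose (all genes 12.4% and 44.6%). ESRRA WT cells had 26 falls and 7 rises (all genes 15% and 31.2%), and the WT cells of the TFEB+TFE3 experiment had 23 and 9 (all genes 17.9% and 41.1%). WT FNIP1 cells had 2 falls and 3 rises (all genes 4.87% and 11.6%). Without the 2 FNIP1 SA5 libraries that stand apart, whose spread the fit shares, these became 16 and 10 (all genes called in either direction 53.7%). Median-ratio scaling of all libraries gave 3 falls and 1 rise in WT FNIP1 cells, and quantile normalization 4 and 8. Median-ratio scaling moved the all-gene median by about 0.15 in siControl cells and 0.12 in the TFEB+TFE3 WT cells, and gave 42 falls and 3 rises in siControl cells, 41 and 3 in the TFEB+TFE3 WT cells, and 34 and 2 in ESRRA WT cells. Quantile normalization gave 20 falls and 7 rises in siControl cells, 14 and 10 in the TFEB+TFE3 WT cells, and 21 and 7 in ESRRA WT cells. In ESRRA WT cells 21 members passed without replicate 1, against 33 with all libraries. In WT FNIP1 cells 1 member passed without replicate 2 and 1 without replicate 3. Over the 5 control arms, AMPK WT included, 12 members fell in at least 4 and 4 rose in at least 4. How many of all genes did so was not counted.

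CYCS and ATP5G3 fell, and SDHAF4, COX17 and COX7A2L rose, in all 5 control arms at 16 h of 991. CYCS was at 26.97, 24.4 and 29.4 TPM in the TFEB+TFE3 WT cells, against 56.96, 54.03 and 46.6 TPM under DMSO (log2 change -0.94, SE 0.077, adjusted p = 3.3e-11), and at 40.01, 40.4 and 37.9 TPM in ESRRA WT cells, against 53.6, 50.03 and 51.7 TPM (log2 change -0.38, SE 0.047, adjusted p = 1.5e-07). In WT FNIP1 cells CYCS was at 25.5, 27.4 and 26.9 TPM, against 37.8, 40.8 and 41.9 TPM (log2 change -0.58, SE 0.17, adjusted p = 0.024), and in siControl cells the fall was smallest (log2 change -0.17, SE 0.067, adjusted p = 0.037). SDHAF4 ranged from 0.57 in ESRRA WT cells to 1.27 in AMPK WT cells; in WT FNIP1 cells it was at 16.7, 18.8 and 17.5 TPM, against 8.55, 7.93 and 10.5 TPM (log2 change 0.91, SE 0.14, adjusted p = 6.2e-05). COX17, the copper carrier, rose by 0.16 (siControl) to 0.36 (WT FNIP1), and COX7A2L by 0.16 (ESRRA WT) to 0.38 (siControl). UQCRFS1 fell in 4 of the 5 arms, and in WT FNIP1 cells its log2 change of -0.30 did not pass; without the 2 SA5 libraries it did (log2 change -0.30, adjusted p = 3.7e-06). ATP5J2 was at 456, 435 and 449 TPM in siControl cells, against 615, 609 and 699 TPM (log2 change -0.52, SE 0.045, adjusted p = 2.7e-10), and it fell in the TFEB+TFE3 WT cells (-0.41) and ESRRA WT cells (-0.33). COX18, which inserts a mitochondrially coded subunit, rose in siControl cells (log2 change 0.44, SE 0.080, adjusted p = 3.3e-05) and the TFEB+TFE3 WT cells (0.32) but fell in AMPK WT cells (log2 change -0.19, SE 0.072, adjusted p = 0.02). SDHD rose in siControl cells (log2 change 0.42, SE 0.12, adjusted p = 0.0042) but fell in the TFEB+TFE3 WT cells (log2 change -0.20, SE 0.072, adjusted p = 0.019). ATP5D fell in siControl cells (log2 change -0.47, SE 0.10, adjusted p = 0.00029).

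**Figure D4:**
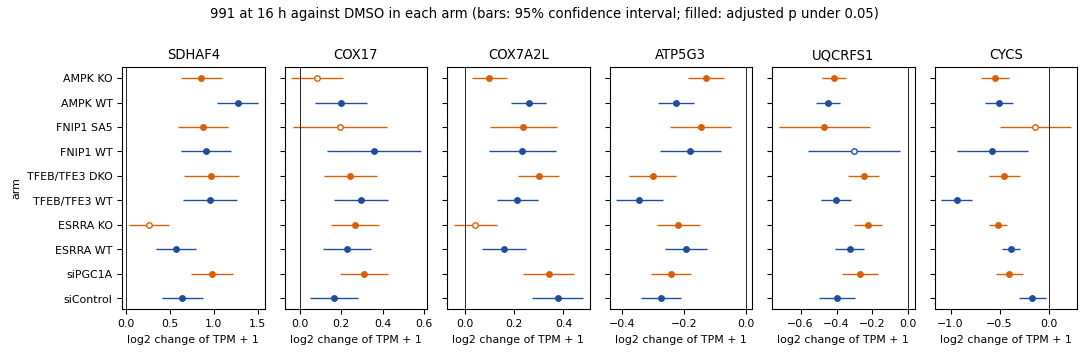
Log2 change of TPM + 1 (horizontal axis) of 6 members after 16 h of 991 against DMSO in each of 10 arms (vertical axis; altered arms orange, control arms blue), with 95% confidence intervals; filled points passed an adjusted p of 0.05. SDHAF4, COX17 and COX7A2L lie to the right of 0 and ATP5G3, UQCRFS1 and CYCS to the left in every arm, with open points among the altered arms and for UQCRFS1 in WT FNIP1 cells.

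Members stood lower in TFEB+TFE3 KO cells before any 991. Under DMSO 37 of 58 members were lower in TFEB+TFE3 KO cells and 3 higher (all genes 13.7% and 37.6%), with a median of -0.14 beside 0.11 over all genes. By complex, 8 of 9 subunits of complex III, 9 of 11 of complex IV, 13 of 15 of complex V and 2 of 4 of complex II were lower, and none of these was higher; of the 13 assembly factors 2 were lower and 3 higher. Median-ratio scaling moved the all-gene median to 0 and gave 44 lower and 2 higher members. Markers differed too. Of 6 HEK 293 markers tested 3 were higher, led by VIM (1.04 (adjusted p = 1.8e-19)), and NEFM was lower (-0.54 (adjusted p = 8.8e-06)); the list summed to 659 to 667 TPM in TFEB+TFE3 KO cells, against 363 to 385 TPM in WT cells. Of the markers of other cells both tested were lower, COL1A1 at -0.21 (adjusted p = 0.031) and COL3A1 at -0.94 (adjusted p = 1.2e-11). All 12 summed to 4.49 to 5.59 TPM in TFEB+TFE3 KO cells, against 6.68 to 7.34 TPM in WT cells, with PTPRC, CD3E and HBB at 0 in both. Their part in the result was not tested. SDHAF4 was at 8.06, 6.92 and 10.3 TPM in TFEB+TFE3 KO cells and 12.1, 16.3 and 13.6 TPM in WT cells (log2 difference -0.68, SE 0.15, adjusted p = 0.00044), with no overlap. ATP5G2 was at 201, 203 and 197 TPM in TFEB+TFE3 KO cells and 295, 311 and 294 TPM in WT cells (log2 difference -0.58, SE 0.033, adjusted p = 3.4e-14), and ATP5J2 followed (log2 difference -0.38, SE 0.046, adjusted p = 1e-07). CYC1 was at 151, 149.5 and 151 TPM in TFEB+TFE3 KO cells and 198, 188 and 197 TPM in WT cells (log2 difference -0.37, SE 0.051, adjusted p = 7.8e-07). The higher members were COX19 (log2 difference 0.38, SE 0.082, adjusted p = 0.00035), COX20 (log2 difference 0.36, SE 0.10, adjusted p = 0.0037) and COX10 (log2 difference 0.25, SE 0.067, adjusted p = 0.0025).

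ESRRA KO cells, knocked out for the gene of estrogen-related receptor alpha, had 24 members lower and 3 higher than ESRRA WT cells under DMSO (all genes 14.7% and 6.71%), with a median of -0.095 beside -0.041 over all genes. Complex V held 9 of the lower members. ATP5B was at 535, 549 and 544 TPM in ESRRA KO cells and 658, 636 and 655 TPM in ESRRA WT cells (log2 difference -0.26, SE 0.023, adjusted p = 4.5e-09). UQCRFS1 was at 82.5, 79.5 and 82.5 TPM in ESRRA KO cells and 101.8, 94.7 and 99.6 TPM in ESRRA WT cells (log2 difference -0.27, SE 0.039, adjusted p = 1e-05), and CYCS at 41.3, 44.1 and 42.9 TPM in ESRRA KO cells and 53.6, 50.03 and 51.7 TPM in ESRRA WT cells (log2 difference -0.27, SE 0.047, adjusted p = 0.00011). COX20 (log2 difference -0.37, SE 0.087, adjusted p = 0.0026) and COX10 (log2 difference -0.32, SE 0.070, adjusted p = 0.0013) had the 2 largest negative differences. The higher members were SDHAF4, at 14.1, 17.5 and 16.4 TPM in ESRRA KO cells and 9.30, 11.6 and 12.5 TPM in ESRRA WT cells (log2 difference 0.49, SE 0.11, adjusted p = 0.002), ATP5G2 (log2 difference 0.26, SE 0.041, adjusted p = 3.5e-05) and COX7A2L (log2 difference 0.14, SE 0.043, adjusted p = 0.017). Median-ratio scaling gave 14 lower and 4 higher members, and quantile normalization 17 and 4. Without replicate 1 the count of called members was 15. The HEK 293 markers summed to 389 to 401 TPM in ESRRA KO cells and 400.0 to 409.8 TPM in ESRRA WT cells (1 of 6 higher and 1 lower), and the markers of other cells to 4.26 to 5.26 TPM in ESRRA KO cells and 4.81 to 5.59 TPM in ESRRA WT cells.

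In siPGC1A cells under DMSO 10 members were lower and 0 higher than in siControl cells (all genes 9.89% and 14.3%). The 3 largest differences follow. UQCRQ, a small subunit of complex III, was at 64.4, 63.5 and 59.6 TPM with siPGC1A and 107.8, 116 and 123 TPM with siControl (log2 difference -0.88, SE 0.051, adjusted p = 1.4e-13). COX15 was at 9.80, 9.43 and 8.76 TPM with siPGC1A and 16.4, 16.4 and 15.99 TPM with siControl (log2 difference -0.74, SE 0.049, adjusted p = 2.1e-12), and ATP5H at 148, 148 and 139 TPM with siPGC1A and 209.9, 185 and 194 TPM with siControl (log2 difference -0.44, SE 0.052, adjusted p = 2.5e-07). The median of the members was -0.046, beside 0.023 over all genes. The level of FNIP1 moved with these arms, as given above, and so did the sum of the HEK 293 markers, at 625 to 693 TPM with siPGC1A and 442 to 487 TPM with siControl (3 of 6 higher); their part in the result was not tested. The markers of other cells summed to 4.97 to 5.99 TPM with siPGC1A and 4.65 to 6.02 TPM with siControl.

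AMPK KO cells under DMSO had 17 members lower and 8 higher than AMPK WT cells (all genes 22.7% and 16.2%), with a median of -0.038 beside -0.022 over all genes; median-ratio scaling gave 10 lower and 11 higher. ATP5I, at the DMSO levels given above (log2 difference -0.66, SE 0.048, adjusted p = 1.3e-19), UQCR10 (log2 difference -0.53, SE 0.038, adjusted p = 3.7e-20) and ATP5S (log2 difference -0.42, SE 0.079, adjusted p = 1.1e-05) were lowest. CYCS was at 41.3, 40.97 and 43.5 TPM in AMPK KO cells (log2 difference -0.37, SE 0.071, adjusted p = 1.8e-05). ATP5D (log2 difference 0.33, SE 0.082, adjusted p = 0.00067), COX11 (log2 difference 0.31, SE 0.053, adjusted p = 2.1e-06) and COX10 (log2 difference 0.15, SE 0.051, adjusted p = 0.013) had the 3 largest of the 8 positive differences. The count of called members was 16 without replicate 2 and 16 without replicate 3. The HEK 293 markers summed to 389 to 449 TPM in AMPK KO cells and 305 to 334 TPM in AMPK WT cells (3 of 7 higher and 1 lower), and the markers of other cells to 5.83 to 5.99 TPM in AMPK KO cells and 7.80 to 8.33 TPM in AMPK WT cells, with COL3A1 lower (-0.91 (adjusted p = 5.1e-12)) and HBB at 0 in both; their part in the result was not tested.

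FNIP1 SA5 cells under DMSO had 2 members lower (COX15 and COX20) and 2 higher (ATP5G2 and COX7C) than WT FNIP1 cells (all genes 8.64% and 1.69%). The FNIP1 transcript itself was lower in FNIP1 SA5 libraries, as given above, and its part in the result was not tested. Median-ratio scaling moved the all-gene median of this comparison from -0.30 to 0, and both it and quantile normalization gave 0 lower and 4 higher. Without the library labelled FNIP1 SA5 DMSO replicate 1, 0 members passed, and 0 passed without replicate 2 or without replicate 3 of every group. ATP5G2 was at 428, 244 and 254 TPM in FNIP1 SA5 cells and 227, 222 and 212 TPM in WT FNIP1 cells, and COX7C at 1051, 674 and 684 TPM in FNIP1 SA5 cells and 588, 624 and 635 TPM in WT FNIP1 cells, the first FNIP1 SA5 value being replicate 1. Without both libraries 2 members were lower and 6 higher (all genes called in either direction 13.7%), with ATP5G2 at a log2 difference of 0.18 and COX7C at 0.14. With all libraries the HEK 293 markers summed to 262 to 361 TPM in FNIP1 SA5 cells and 428 to 444 TPM in WT FNIP1 cells (1 of 7 higher and 3 lower), and the markers of other cells to 2.24 to 4.38 TPM in FNIP1 SA5 cells and 5.19 to 5.89 TPM in WT FNIP1 cells, with COL1A1 lower (-0.63 (adjusted p = 0.0091)) and CD3E, HBB and KRT5 at 0 in both; their part in the result was not tested.

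**Figure D5:**
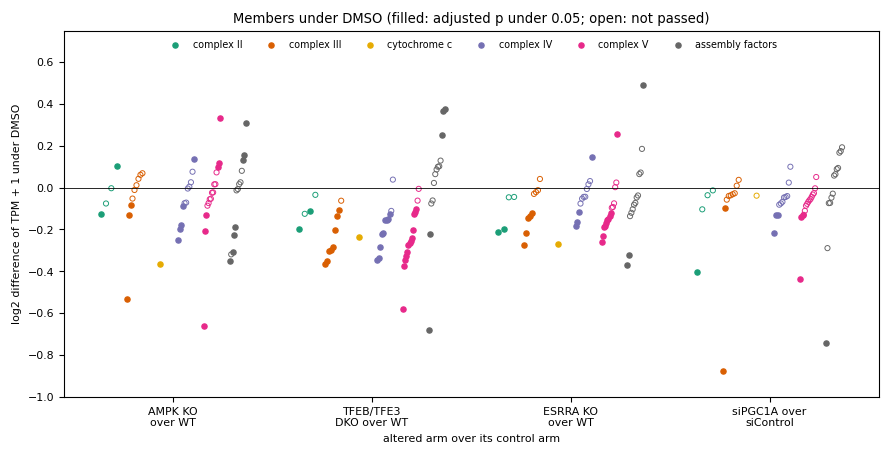
Log2 difference of TPM + 1 under DMSO (vertical axis) of the subunits and assembly factors, altered arm over its control arm (horizontal axis), coloured by complex; filled points passed an adjusted p of 0.05. Most filled points lie below 0 for the TFEB+TFE3 and ESRRA knock outs, and UQCRQ and COX15 lie lowest with siPGC1A. The FNIP1 arms, where 1 library stands apart, are not drawn.

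With 991 at 16 h, 24 members fell and 10 rose in TFEB+TFE3 KO cells (all genes 12.5% and 35.7%), 27 members fell and 1 rose in ESRRA KO cells (all genes 12.9% and 31.5%). In siPGC1A cells 29 fell and 7 rose (all genes 12.7% and 39.2%), and in FNIP1 SA5 cells 13 fell and 7 rose (all genes 5.76% and 39.2%), or 14 and 9 without the 2 libraries that stand apart (all genes called in either direction 49.3%). At 16 h, 6 of 58 members differed in response between TFEB+TFE3 KO and WT cells, a share below that of all genes (12.7%). CYCS was at 30.5, 32.5 and 33.3 TPM in TFEB+TFE3 KO cells, against 45.1, 43.6 and 44.1 TPM under DMSO, a smaller fall than in WT cells (log2 difference 0.49, SE 0.11, adjusted p = 0.0038). ATP5J2 (log2 difference 0.27, SE 0.066, adjusted p = 0.0071) and the overlapping ATP5J2-PTCD1 (log2 difference 0.24, SE 0.072, adjusted p = 0.025) were positive as well, and ATP5G1 (log2 difference -0.16, SE 0.053, adjusted p = 0.047) and ATP5B (log2 difference -0.14, SE 0.037, adjusted p = 0.011) negative. SDHAF4, lower in TFEB+TFE3 KO cells from the start, responded to 991 with 0.97 in TFEB+TFE3 KO cells and 0.96 in WT cells, a difference of 0.014 (95% confidence interval -0.43 to 0.45). Median-ratio scaling gave 4 positive and 0 negative differences, and quantile normalization 4 and 4. The count was 2 without replicate 1, 2 without replicate 2 and 1 without replicate 3. Between ESRRA KO and WT cells 1 of 58 members differed, a share below that of all genes (2.84%). ATP5A1 was at 252, 249 and 248 TPM in ESRRA KO cells, against 267, 266 and 263 TPM under DMSO, and at 248, 255 and 253 TPM in ESRRA WT cells, against 307, 290.1 and 298 TPM (log2 difference 0.16, SE 0.035, adjusted p = 0.013). That call was lost without replicate 1, 2 or 3, and quantile normalization gave 1 positive and 3 negative differences. Between siPGC1A and siControl cells limma called 0 of 58 members (11 had an unadjusted p under 0.05; all genes 0.201%), while quantile normalization gave 1 positive and 1 negative difference and the fit with the replicate number as a block 1. Between FNIP1 SA5 and WT FNIP1 cells it called 0 of 58 with all libraries (1 unadjusted; all genes 0.015%) and 0 without the 2 that stand apart (2 unadjusted; all genes 0.143%). Within those limits SDHAF4 differed by -0.25 (SE 0.14) between the FNIP1 arms without them.

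Neighbouring genes of the pathway that the symbols do not capture also moved with phenformin at 16 h in AMPK WT cells. Among all genes 34.9% fell and 45.3% rose there. Of 18 further assembly factors of complex IV, 12 fell and 3 rose (median -0.24), led by COA4 at -1.63 (adjusted p = 8.1e-42) and PET100 at -0.90 (adjusted p = 3.1e-16) among the falls and by CEP89 at 0.61 (adjusted p = 4.5e-13) and CMC4 at 0.58 (adjusted p = 1.5e-12) among the rises. Of 6 assembly factors of complex III, 4 fell and 0 rose (median -0.26), led by LYRM7, a chaperone of UQCRFS1, at -1.20 (adjusted p = 1e-27) and TTC19, which also acts on UQCRFS1, at -0.42 (adjusted p = 2.9e-15). ATP synthase had 5 measured assembly factors, of which 3 fell and 1 rose, led by FMC1 at -1.49 (adjusted p = 1.1e-28) and ATPAF2 at -0.64 (adjusted p = 5.1e-14). Of 7 subunits or inhibitors that carry other symbols, 6 fell and 1 rose, with HIGD1A at -0.91 (adjusted p = 3.8e-32) and NDUFA4L2 at 0.89 (adjusted p = 1.7e-14) at the ends.

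The carriers and regulators around the chain did not all follow. Of 10 measured genes of coenzyme Q synthesis 7 fell and 2 rose, with COQ6 at -0.65 (adjusted p = 1.7e-13) and PDSS1 at -0.58 (adjusted p = 1.6e-14) lowest, and PDSS2 at 0.93 (adjusted p = 5.8e-23) and COQ5 at 0.85 (adjusted p = 7.4e-20) highest. Among 6 partners of cytochrome c, 4 rose and 2 fell. APAF1, which cytochrome c binds in the apoptosome, was at 0.98 (adjusted p = 8.3e-23), and HCCS, which attaches its haem, at -0.50 (adjusted p = 3.6e-16). Of 12 factors known to act on nuclear respiratory genes 11 rose and 1 fell, opposite to most members. GABPB1, a partner of GABPA, led the rises at 1.23 (adjusted p = 2.5e-23), and PPRC1 was the fall at -0.36 (adjusted p = 7.8e-09). PPARGC1A is counted among the 11 rises, but the filter let it in through libraries where it was high, so its call carries no weight of its own. PPARGC1A was near the floor, at 0.657, 0.456 and 0.549 TPM under DMSO and at most 2.55 TPM in AMPK WT libraries. In AMPK KO libraries it reached at most 0.956 TPM, so it passed the filter of 1 TPM through AMPK WT libraries alone. Of 4 genes tied to the hypoxic switch of COX4 isoforms, 3 rose and 1 fell, with LONP1 at 0.66 (adjusted p = 4.6e-22) and CHCHD2 at -0.27 (adjusted p = 2.2e-08) at the ends, and COX4I2, the isoform of that switch, reached at most 0.438 TPM. These lists hold few genes and stand beside 80.1% of all genes called in this comparison (34.9% fell and 45.3% rose).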

How the data were processed

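RNA of 240 HEK 293T libraries (10 arms, 3 libraries per group) was read from 5 deposited tables of TPM values per gene, 1 table per experiment. FastQC, STAR, HOMER and GRCh38 are named in the submitters' processing notes, without versions; strand use and the TPM denominator are not given in the sources used here, and the TPM listed per library sum to 396341 to 449208. TPM keeps no depth, so the depth behind each value is unknown, and a gene's TPM moves with the rest of its library.

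Members and gene lists were chosen with earlier results of these data known. Per table, log2(TPM + 1) of genes that reached 1 TPM in 3 libraries was fitted with limma 3.58.1 (R 4.3.3), with a term for each group over all libraries of the table, so all groups share 1 estimate of the spread, and with a mean-variance trend. P-values were adjusted by Benjamini-Hochberg over all genes tested, at 0.05. Differences of response are interaction contrasts. The genes given full statistics are the 3 largest called changes each way of each 16 h or DMSO comparison, isoform sets, the SDH subunits, CYC1 and CYCS; those singled out later are said to be. No 2 libraries held identical values, and the fit was tested on simulated data.

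Alternatives were quantile normalization or median-ratio scaling of the libraries, all genes unfiltered, 0.1 as pseudocount, each replicate number left out, a replicate block, and the FNIP1 table without its library labelled SA5 DMSO replicate 1; leaving out a second library with it was chosen after seeing the data. The labels do not say what libraries of the same number share. Same-number correlations all exceeded 0.1 in 6 of 75 comparisons (median 0.026), among them AMPK KO over AMPK WT under DMSO (0.644, 0.516 and 0.193), where the fit with the replicate number as a block called 26 members, against 25.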

Additional observations from a re-analysis of the deposited data

Results flagged for a closer look

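The response of these members differed between an altered arm and its control arm by the interaction contrast of limma (adjusted over all genes of the table, n = 3 libraries per group). Up to 3 members are listed each way, those with the largest differences among the 18 called for phenformin, 17 for CCCP, 6 for 991, 6 for TFEB+TFE3 and 1 for ESRRA. Among all genes the shares called were 13.9%, 28.2%, 15%, 12.7% and 2.84%, in the same order. The share of members was above that of all genes for phenformin, near it for CCCP, and below it for 991, TFEB+TFE3 and ESRRA. Without 1 replicate number the member counts were 3 to 26, 6 to 13, 0 to 11, 1 to 2 and 0. Values are log2 differences of response at 16 h, altered minus control.

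With 991, AMPK KO minus AMPK WT, the difference was -0.342 for SDHD (adjusted p = 0.02), -0.16 for COX7A2L (adjusted p = 0.022), 0.213 for ATP5I (adjusted p = 0.024), 0.215 for ATP5J2-PTCD1 (adjusted p = 0.0037) and 0.263 for ATP5G1 (adjusted p = 0.0027). With CCCP it was -0.289 for SDHD (adjusted p = 0.034), -0.284 for COX16 (adjusted p = 0.0052), -0.274 for ATP5H (adjusted p = 0.0039), 0.181 for CYC1 (adjusted p = 0.014), 0.271 for COX10 (adjusted p = 0.0031) and 0.495 for COX19 (adjusted p = 0.00064). With phenformin it was -0.206 for COX15 (adjusted p = 0.027), -0.189 for COX7A2L (adjusted p = 0.0066), 0.289 for UQCR10 (adjusted p = 8.1e-05), 0.289 for ATP5I (adjusted p = 0.002) and 0.338 for ATP5G1 (adjusted p = 0.00013).

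With 991, TFEB+TFE3 KO minus WT, the difference was -0.16 for ATP5G1 (adjusted p = 0.047), -0.141 for ATP5B (adjusted p = 0.011), 0.241 for ATP5J2-PTCD1 (adjusted p = 0.025), 0.27 for ATP5J2 (adjusted p = 0.0071) and 0.485 for CYCS (adjusted p = 0.0038). For ESRRA KO minus ESRRA WT it was 0.156 for ATP5A1 (adjusted p = 0.013).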

How the results depend on the processing

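Of 131 recomputed counts of called members over 25 results, leaving out 1 replicate number aside, 114 stayed within 1.5 times the value reported. Quantile normalization gave 17 falls and 15 rises for 991 in AMPK WT cells, 13 rises for phenformin, 12 called for 991 in WT FNIP1 cells and 27 in siControl cells, and 4 and 2 differences of response for ESRRA and siPGC1A. Median-ratio scaling gave 5 rises for 991, 4 for CCCP and 6 for rotenone, and 11 differences for CCCP. With no filter 1 member was called between the FNIP1 arms under DMSO. That count was 0 without the library labelled SA5 DMSO replicate 1 and 8 without both libraries that stand apart, and the 991 count in WT FNIP1 cells was 21 and 26. The cause of these shifts was not tested. With the replicate block the siPGC1A difference of response had 1 called member, against 0, and the other 24 counts stayed within 1.5 times, while 1 of 94 named values lost its call.

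Leaving out each replicate number in turn gave, for AMPK WT, 18 to 21 falls and 6 to 9 rises with 991, 27 to 31 and 5 to 7 with CCCP, 43 to 44 and 3 to 4 with phenformin, and 13 to 21 and 8 to 12 with rotenone. Differences of response between the AMPK arms ranged from 0 to 11 for 991, 6 to 13 for CCCP, 3 to 26 for phenformin and 0 to 0 for rotenone; for TFEB+TFE3 from 1 to 2, and for ESRRA, FNIP1 and siPGC1A they were 0. Under DMSO the counts were 16 to 25 for AMPK, 31 to 35 for TFEB+TFE3, 15 to 22 for ESRRA, 7 to 8 for siPGC1A and 0 to 2 for FNIP1. For 991 in control arms they were 23 to 26 (TFEB+TFE3), 21 to 29 (ESRRA), 30 to 36 (siControl) and 1 to 23 (WT FNIP1). Of 770 recomputed values of named members 663 kept their call, 107 lost it and 0 changed sign. TPM gives no depth, so what depth limits is unknown.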
